A study of Danio rerio with 4 samples.

Results

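Stretches of the zebrafish genome in which no Gfi1aa enrichment was called are described here, outside chromosome 4. Each chromosome was divided into fixed windows of 100 kb, and windows lying wholly between its first and its last peak summit were kept. On chromosomes 1 to 25 this gave 13408 windows, 12629 of them on the 24 chromosomes other than chromosome 4. Of these 12629, 275 (2.18%, exact 95% binomial interval 1.93% to 2.45%) held 0 summits. Adjacent empty windows were joined into 240 deserts, which covered 27.5 Mb of the 1266 Mb between the first and last summits. The windows were chosen by their number of summits, so their emptiness is the rule and not a result, and values that come from the same list are given as descriptions without a test.

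Chromatin was taken from whole zebrafish embryos at 15 hours post fertilisation. It was precipitated with an antibody against GFP in 2 libraries (the Gfi1aa ChIP group), and 2 input libraries of the same stage were made without an antibody. The labels do not state how Gfi1aa carried GFP, or whether each library had its own clutch. The deposited data were 1 list of summits in GRCz11 coordinates, so no window has a value per library, a replicate error or an input value beside it, and the read depth behind it is unknown.

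Gfi1 proteins are transcriptional repressors of blood development. They bind DNA through zinc fingers and recruit the histone demethylase Lsd1 through a short domain at their start, and the title of the study links Gfi1aa and Lsd1 to cebpa, which encodes a transcription factor of the myeloid lineage. In ChIP sequencing a summit marks the point of highest read enrichment within a called region. Embryos hold many cell types, and in a whole-embryo library weak occupancy in many cells and strong occupancy in few cells cannot be told apart. A window without a summit is therefore one in which no enrichment reached the threshold of the list, and it does not show that Gfi1aa was absent there. The GRCz11 sequence was not used here, so windows with unresolved bases were counted like any other, and sequence that was not assembled cannot be told apart from sequence without enrichment.

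Empty windows formed the low end of a broad distribution. Over the 12629 windows the number of summits had a median of 10 (quartiles 5 and 17), a mean of 12.2 ± 9.29 (SD over windows) and a maximum of 74. Beside the 275 windows with 0 summits, and just outside the rule, 392 windows (3.10%) held 1 summit and 538 (4.26%) held 2, so the count changed smoothly across the limit. The scores of the 392 lone summits, read as −log10 of the q-value, had a median of 5.19 (quartiles 3.04 and 10.2), and 185 of them (47.2%) scored under 5, against 35.3% of all summits on the 24 chromosomes. The strongest lone summit scored 162, and 2 of the 392 reached 100. Of the 392 windows with 1 summit, 51 (13.0%) lay beside an empty window, and the share over all windows with a summit was 3.72%.

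**Figure D1:**
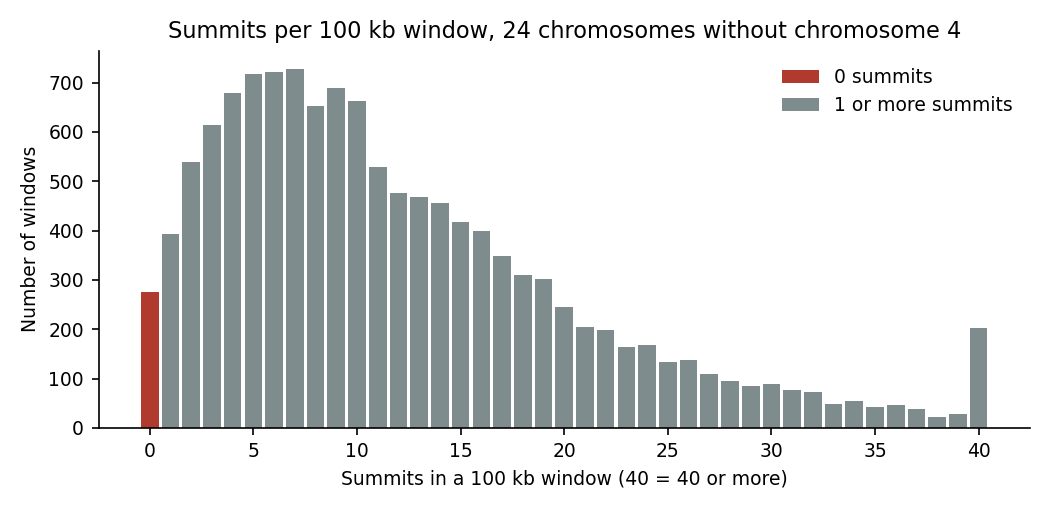
Number of 100 kb windows (vertical axis) by the number of summits they hold (horizontal axis, 40 standing for 40 or more) on the 24 chromosomes other than chromosome 4. The 275 windows with 0 summits, in red, are fewer than the 392 with 1 summit, and 203 windows hold 40 or more.

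Most deserts were short. Of the 240 deserts, 216 (90%) were a single window, 19 were 2 windows, 2 were 3 windows, and 1 each had 4, 5 and 6 windows. The 24 deserts of 2 or more windows held 59 of the 275 empty windows. The fixed grid understates the true gap, which was therefore also measured between the summits on either side. That distance had a median of 163 kb (quartiles 135 and 197 kb) and ran from 105 to 689 kb, with 56 deserts over 200 kb and 10 over 300 kb. Neighbouring summits on these chromosomes were a median of 2.46 kb apart. The grid also decides which gaps contain a whole window. In all, 652 gaps between neighbouring summits (0.422% of 154683) were 100 kb or longer, and 240 of them (36.8%) contained a whole window. The 412 that did not had a median of 115 kb and reached at most 198 kb, and they are not among the members.

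The longest desert was on chromosome 3, where 6 windows from 2.2 to 2.8 Mb were empty and the flanking summits at positions 2166057 and 2854687 were 689 kb apart. Those summits scored 2.12 and 12.8, and the 100 kb on either side held 6 summits before the desert and 2 after it. The second was on chromosome 8, with 5 windows from 38.9 to 39.4 Mb between summits at 38855908 and 39442374 (586 kb apart), and 3 and 4 summits at its edges. A summit scoring 151 was among these 7, whereas the strongest at the edges of the chromosome 3 desert scored 28.5. The third was on chromosome 7, with 4 windows from 2.5 to 2.9 Mb between summits at 2423092 and 2900746 (478 kb), 3 and 2 edge summits, and an edge maximum of 6.86. All 5 deserts of 3 or more windows had few summits beside them, and all but that on chromosome 7 had another desert 100 kb away.

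The other deserts of 3 windows were on chromosome 14 from 50.4 to 50.7 Mb, with flanking summits 459 kb apart, and on chromosome 25 from 26.3 to 26.6 Mb, with flanking summits 419 kb apart. The edges held 8 summits on chromosome 14 and 5 on chromosome 25, with medians of 4.77 and 3.47 in score. The desert of 2 windows on chromosome 10, from 12.2 to 12.4 Mb, had unlike sides. The 100 kb before it held 30 summits in 16 regions, with scores of 10.5 to 333 and a median of 84.6, and the 100 kb after it held 1 summit, scoring 4.98. The last 4 of the 10 longest, each of 2 windows, were on chromosome 1 (35.1 to 35.3 Mb, 355 kb between flanking summits), chromosome 3 (1.6 to 1.8 Mb, 336 kb), chromosome 7 (58.4 to 58.6 Mb, 328 kb) and chromosome 21 (8.9 to 9.1 Mb, 317 kb). Their edges held 7, 5, 15 and 12 summits in that order, and none held as many as the 30 before the desert on chromosome 10.

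**Figure D2:**
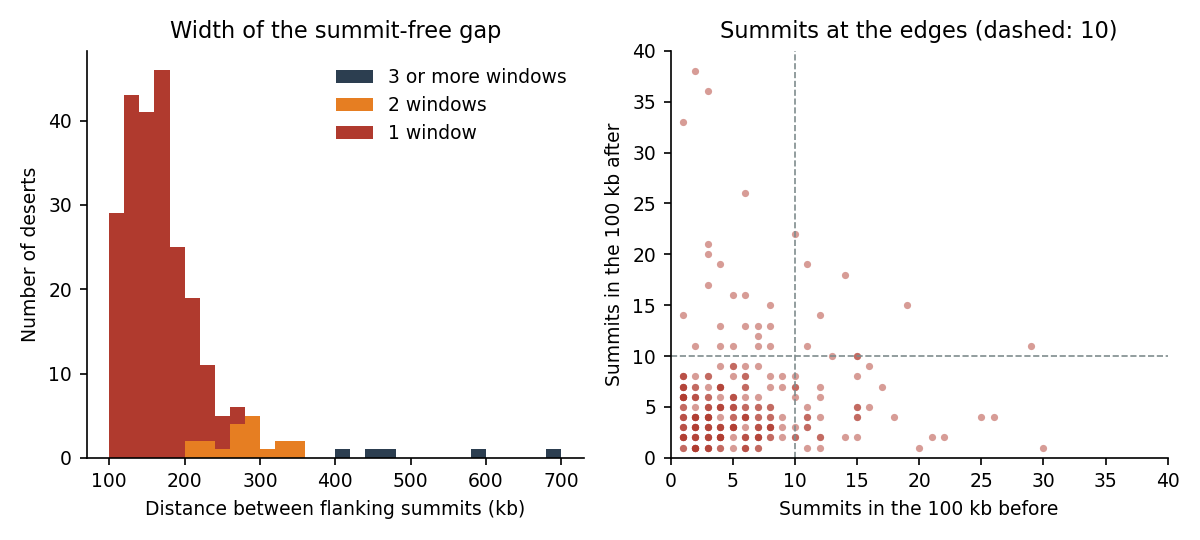
Left, number of deserts (vertical axis) by the distance in kb between their flanking summits (horizontal axis, bins of 20 kb), coloured by desert length. Right, for each of the 240 deserts, summits in the 100 kb after it (vertical axis) against summits in the 100 kb before it (horizontal axis), with dashed lines at 10. Most gaps lie under 200 kb, and most deserts have fewer than 10 summits on either side.

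Every one of the 24 chromosomes held at least 1 empty window. The share per chromosome averaged 2.18% ± 0.832 (SD, n = 24 chromosomes), and 21 of the 24 held between 6 and 16. Chromosome 22 had the highest share, 15 of 390 windows (3.85%, exact interval 2.17% to 6.26%), all in separate deserts of 1 window. Chromosome 25 followed with 14 of 373 (3.75%). The most windows by number were on chromosome 7 (23 of 741, 3.10%) and chromosome 3 (20 of 625, 3.2%), and these 2 chromosomes held 15.6% of the empty windows and 10.8% of all windows. Chromosome 15 had the lowest share, 1 of 479 windows (0.209%, exact interval 0.00529% to 1.16%). Apart from that of chromosome 15, all intervals of the 24 chromosomes overlapped one another. They cover counting error only, which is too narrow for windows that occur side by side.

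Chromosomes with like mean numbers of summits could differ in their share of empty windows, as pairs picked after their values were seen show. Chromosome 15 averaged 12.7 summits per window and chromosome 7 also averaged 12.7, with 0.209% (1 of 479) and 3.10% (23 of 741) of windows empty. Chromosome 3 averaged 12.5 with 3.2% empty (20 of 625), and chromosome 11 also averaged 12.5 with 1.32% (6 of 453). The highest shares, on chromosomes 22 and 25, nevertheless stood beside low means of 11.4 and 11.5. The highest means, 13.6 on chromosome 23 and 13.3 on chromosome 13, stood beside shares of 1.52% and 1.73%. Chromosome 9, with the lowest mean (11.2), had 2.13%. A relation over the 24 chromosomes was not tested. Chromosome 15 did have windows near the limit, 17 with 1 summit, against 28 on chromosome 7. On chromosome 4, which is set beside the others only for scale, 96 of 779 windows (12.3%, exact interval 10.1% to 14.8%) were empty. Its windows up to 30 Mb had 3 of 299 empty (1.003%), below the mean of the other chromosomes, and those beyond 30 Mb had 93 of 480 (19.4%).

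**Figure D3:**
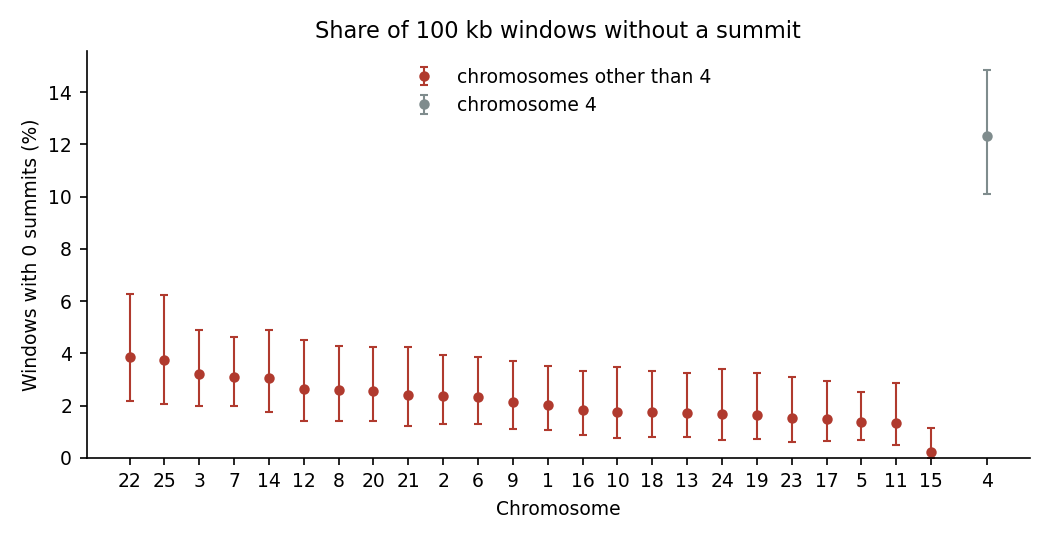
Share of 100 kb windows with 0 summits (vertical axis, percent) for each chromosome (horizontal axis), in falling order, with exact 95% binomial intervals as bars and chromosome 4 apart at the right. Shares run from 3.85% on chromosome 22 down to 0.209% on chromosome 15, and chromosome 4 stands at 12.3%.

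Deserts were scarce in the middle of the chromosomes. Place was measured as a percentage of the way between the outermost summits of a chromosome. In the middle part, from 40% to 60%, 24 of 2532 windows were empty (0.948%, exact interval 0.608% to 1.41%), against 251 of 10097 (2.49%, 2.19% to 2.81%) in the rest. The middle part thus held 8.73% of the empty windows and 20.05% of all windows. It joins the 2 steps of 10% with the lowest shares, whereas the place result planned beforehand was the share in the outer 10% at each end. The intervals again cover counting error only. Over chromosomes the share was 0.995% ± 1.37 in the middle part and 2.48% ± 1.07 in the rest (SD, n = 24 each). It was lower in the middle on 22 chromosomes and 0 on 11 of them. Chromosomes 1 and 10 went the other way, with 6 empty windows in the middle of chromosome 1 (5% against 1.27% in its rest) and 4 in that of chromosome 10 (4.44% against 1.105%). These 2 chromosomes held 10 of the 24 empty windows of the middle part.

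The middle was also where summits were densest. Windows there held a mean of 15.6 summits and a median of 14, against a mean of 11.3 and a median of 9 in the rest. In steps of 10% from the start, 2.89%, 1.66%, 2.68%, 2.37%, 0.870%, 1.03%, 1.899%, 2.37%, 3.16% and 2.87% of windows were empty. The mean number of summits per window over the same steps was 10.3, 10.6, 11.3, 12.6, 15.8, 15.5, 13.4, 11.6, 9.99 and 10.8. The highest means, from 40% to 60%, stood beside the lowest shares. The share from 0% to 10% rested on chromosomes 3 and 7, which held 21 of the 36 empty windows there, and 12 of the 24 chromosomes had any. Without these 2 chromosomes it was 1.35% (15 of 1111 windows), below the 2.94% from 90% to 100%, although the mean number of summits was 10.9 in either step. The step from 10% to 20% likewise combined a low mean with few empty windows, 1.42% without chromosomes 3 and 7. The middle part remained below the rest without them, at 1.06% against 2.31%.

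Empty windows were almost missing near the first and last summits. Windows beyond these summits were not kept, so stretches without summits at the true chromosome ends could not be counted. Within 1 Mb of the first or last summit, 1 of 444 windows was empty (0.225%, exact interval 0.00570% to 1.25%), namely the window on chromosome 20 from 0.9 to 1.0 Mb. Between 1 and 5 Mb from an end, 69 of 1920 were empty (3.59%), and chromosomes 3 and 7 held 12 of these each. Without these 2 chromosomes the share was 2.56% (45 of 1760), close to the 2.27% from 5 to 10 Mb and the 2.405% from 10 to 20 Mb on the same 22 chromosomes. With all 24 chromosomes the share was 2.33% from 5 to 10 Mb, 2.43% from 10 to 20 Mb and 1.06% beyond 20 Mb. The mean number of summits per window in these classes was 14.5, 9.91, 10.1, 11.9 and 15.4 from the end inwards, so windows were fullest at the ends and in the middle. The class from 1 to 5 Mb varied widely between chromosomes, with a share of 3.59% ± 3.99 (SD, n = 24), and 23 of 24 chromosomes had at least 1 empty window in it.

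**Figure D4:**
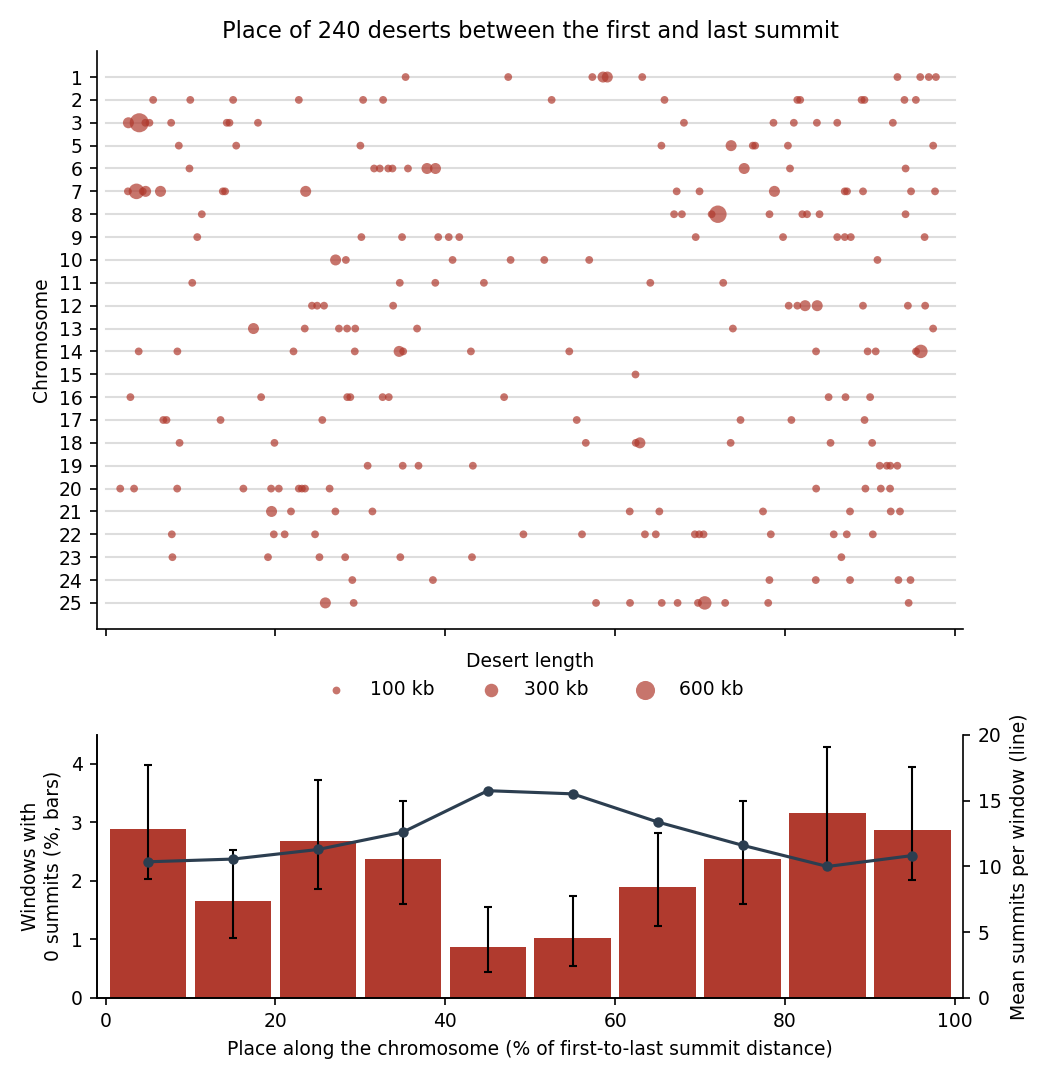
Top, place of the 240 deserts (points sized by length) between the first and last summit of each chromosome, as a percentage of that distance. Bottom, share of windows with 0 summits in each step of 10% (bars, percent, with exact 95% binomial intervals) and mean number of summits per window (line, right axis). The steps from 40% to 60% have the fewest empty windows, 0.870% and 1.03%, and the most summits per window, 15.8 and 15.5.

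Deserts often lay near one another. The distance to the nearest other desert on the same chromosome had a median of 1300 kb (quartiles 400 and 2950 kb) over 239 deserts, since the single desert on chromosome 15 has no neighbour. It was 1 window (100 kb) for 40 deserts and at most 1 Mb for 114 (47.5% of 240), and it exceeded 5 Mb for 32. For scale, 3528 windows with a summit, or 27.9% of all windows, lay within 10 window steps of an empty window. That leaves at most 900 kb in between, a slightly narrower limit than the 1 Mb used between deserts. Whether deserts lay closer together than their number alone would give was not tested. Joining deserts within 1 Mb of each other gave 171 groups, of which 126 were single deserts and 16 held 3 or more. The group with the most empty windows was on chromosome 3 from 1.6 to 3.3 Mb, where 4 deserts made up 10 of 17 windows and the whole 1700 kb held 16 summits (9.41 per Mb). A like stretch on chromosome 7, from 1.9 to 3.6 Mb, had 4 deserts with 8 empty windows and 26 summits (15.3 per Mb). Groups differed in what lay between the deserts. On chromosome 9, from 22.1 to 23.6 Mb, 3 deserts of 1 window were separated by summit-rich sequence, and the 1500 kb held 217 summits (145 per Mb), above the 112 per Mb over the windows of that chromosome. These groups were picked out after their values were seen.

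Summits were sparse at the edges of deserts. The 100 kb on each side of the 240 deserts form 459 windows, because 21 windows lie between 2 deserts and were counted once. These edge windows held 2791 summits, or 60.8 per Mb, against 127 per Mb in the 11895 other windows with a summit. Per chromosome the density was 62.8 ± 16.04 per Mb at edges and 127 ± 5.96 per Mb elsewhere (SD, n = 24 chromosomes). Edges were sparser on 24 of 24 chromosomes, with ratios of edge to other density from 0.257 on chromosome 12 to 0.732 on chromosome 21 and a median of 0.475. Edge windows held a median of 5 summits (quartiles 3 and 8), and other windows a median of 10 (quartiles 6 and 17). An edge window holds at least 1 summit because an empty one would have been joined to the desert. Windows with a summit served as the comparison for that reason. Edge windows also contain the rest of each gap, from the bound of the desert to the flanking summit. Part of their low density is therefore set by the grid. Measured outwards from the flanking summits, an alternative added after the data were seen, density was 79.5 per Mb against 127 in the rest.

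Edge density was lower in the classes of longer deserts. Deserts of 3 or more windows had 33 summits per Mb at their edges, those of 2 windows 48.4 and those of 1 window 62.0. The longest class, however, holds only 5 deserts and 33 edge summits. In that class, the deserts on chromosomes 3, 8, 14 and 25 had an edge window that lay between deserts. Such a window was counted in both classes where the deserts differed in length. Length and nearness to another desert were not separated. The single deserts varied widely. The densest edges were those of a 1-window desert on chromosome 3 from 49.2 to 49.3 Mb, with 29 summits before it and 11 after it (200 per Mb). The sparsest, at 10 per Mb, were found at 2 deserts with 1 summit on either side, and the one with the wider gap was on chromosome 12 from 46.4 to 46.5 Mb (228 kb between summits scoring 8.92 and 3.38). Of the 240 deserts, 172 had fewer than 10 summits on each side, 58 had at least 10 on one side and 10 had at least 10 on both sides. In 37 deserts neither side held more than 3 summits. Counted by window, 16.99% of edge windows held 10 or more summits, against 55.04% of other windows with a summit. The shares with 3 or fewer were 36.8% of edge windows and 11.6% of the others. These shares are for single windows, so they give no direct baseline for counts that join both sides of a desert.

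Density rose with distance from the empty windows. It was 60.8 summits per Mb in the adjacent window and 93.7 at 100 to 200 kb, and it stayed at 93.0 to 94.5 up to 400 kb. It was 105 to 114 per Mb from 400 to 800 kb and 120.3 to 122 per Mb from 800 kb to 1 Mb. At 1 to 2 Mb it was 116, at 2 to 5 Mb 134 and beyond 5 Mb 147 per Mb. Distance was counted from windows chosen by their own number of summits, and it was not separated from place along the chromosome. The spread between chromosomes was wide in some steps (96.2 ± 27.9 per Mb at 100 to 200 kb, SD, n = 24). Differences between steps within the same chromosome were not computed, so the order of neighbouring steps beyond the first was not tested. The adjacent window, at 62.8 ± 16.04 per Mb, was lower than the next step by more than either SD. It is also the step that contains the rest of the gap up to the flanking summit, so part of this difference is set by the grid. Windows beyond 5 Mb came from 23 chromosomes and lie in the parts of chromosomes without deserts, such as most of chromosome 15.

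Individual deserts differed in their wider surroundings. In the windows from 100 kb to 1 Mb beyond their edges, the density had a median of 89.4 summits per Mb (quartiles 69.4 and 115), or 0.739 of that of their own chromosome. It was below that of the chromosome for 193 deserts and above it for 47 (19.6%), and it was under 0.5 of it for 35. The share of all windows with such surroundings is not given here, so these counts have no baseline. Summits per window were skewed, with a median of 10 and a mean of 12.2, so most windows hold fewer than the mean. The sparsest surroundings in relation to the chromosome were those of the desert on chromosome 7 from 3.2 to 3.3 Mb, with 23.9 per Mb against 127 on the chromosome, where 6 of 18 surrounding windows were also empty. The densest in relation to the chromosome were those of a desert on chromosome 25 from 35.4 to 35.5 Mb. They held 206 per Mb against 115, and no other empty window lay around that desert. These 2 deserts were singled out after their values were seen.

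Scores at the edges were slightly lower than elsewhere. The 2791 edge summits had a median score of 6.71 (quartiles 3.52 and 14.3), against 7.29 (3.74 and 16.97) for the 151150 summits of other windows. Per chromosome the median was 6.78 ± 1.4 at edges and 7.40 ± 0.221 elsewhere (SD, n = 24), so the difference was smaller than the spread between chromosomes at the edges. It was lower at the edges on 18 chromosomes, higher on 4 and equal on 2. Chromosome 10 was among the higher ones, with 9.58, and without the edges of its longest desert its median was 6.48. On chromosome 15, with 10.3, the value rests on 18 summits. Scores rose with the number of summits in a window in the whole set, with medians of 5.19 in windows with 1 summit, 5.66 with 2, 6.02 with 3, 6.08 with 4 or 5, 6.54 with 6 to 10, 7.26 with 11 to 20 and 8.39 with 21 or more. When other windows were weighted to the numbers of summits that edge windows hold, their median was 6.71, the same as that of the edges. The single classes differed. Edge medians were lower with 1 summit (4.94 against 5.51), 3 (5.66 against 6.18), 6 to 10 (6.18 against 6.59) and 11 to 20 (7.06 against 7.26). They were equal with 2 and with 4 or 5. With 21 or more they were higher (12.8 against 8.39), in 12 edge windows that include the one before the longest desert of chromosome 10.

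**Figure D5:**
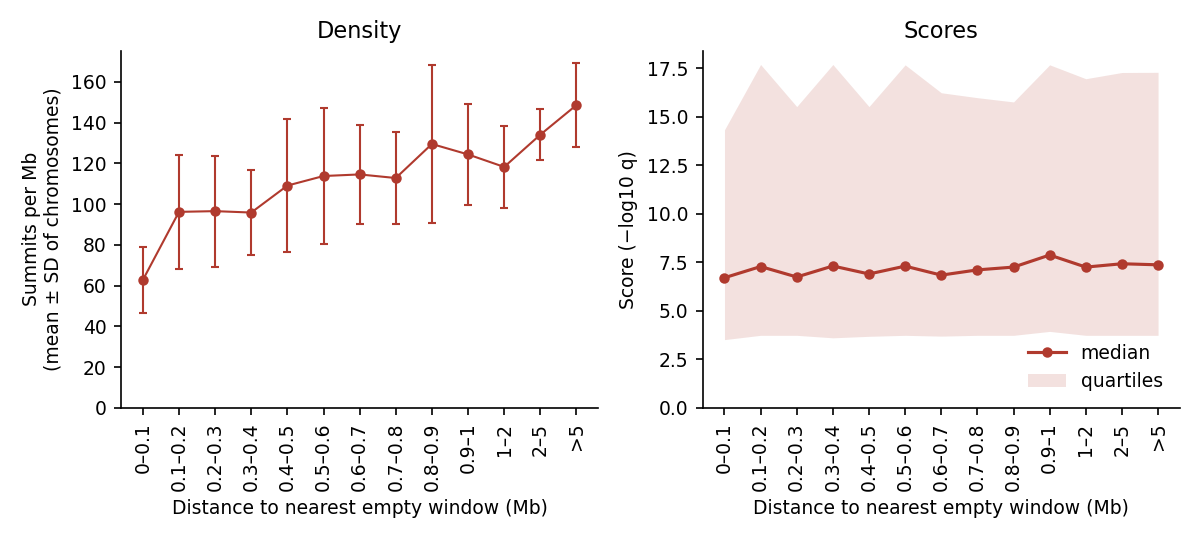
Left, summits per Mb (vertical axis, mean and SD over chromosomes) by distance in Mb to the nearest empty window (horizontal axis, unequal steps beyond 1 Mb). Right, median score and quartiles (−log10 q) of the summits in the same windows. Density is lowest in the adjacent window, 62.8 per Mb, and highest beyond 5 Mb, whereas the median score stays between 6.71 and 7.88.

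Strong enrichment was also found beside deserts. Of the edge summits, 72 (2.58%) scored 100 or more, against 2.02% in other windows, and 18.4% scored 20 or more, against 21.2%. Strong edge summits were clustered, and the number of deserts behind these 72 is not given here. The 30 summits before the 2-window desert on chromosome 10, for example, had a median score of 84.6. The 5 strongest edge summits belonged to 2 deserts. On chromosome 24, summits at 12369244 (score 2398), 12379907 (1572) and 12379220 (998) stood 69.2 to 79.9 kb after the desert from 12.2 to 12.3 Mb, in a window with 5 summits. On chromosome 16, summits at 15658491 (1663) and 15657046 (794) stood 41.5 and 43.0 kb before the desert from 15.7 to 15.8 Mb, in a window with 9 summits.

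The summits that bound the deserts scored lower than the edge summits as a whole. The 240 deserts have 477 different flanking summits, with a median score of 5.66 (quartiles 3.29 and 10.2), against 6.71 for all edge summits and 7.29 for other windows. Of these 477, 9.64% scored under 2 and 9.85% scored 20 or more, and 5 reached 100, the strongest with 333. Of the 477, 22.9% belonged to a region with more than 1 summit, against 51.1% of all summits on the 24 chromosomes. The latter share counts a region once for each of its summits, so the measures are unlike. Counted once per region, 23.6% of regions in edge windows and 28.0% of those in other windows held more than 1 summit. Flanking summits were chosen by their place next to a gap and so have near neighbours on one side only, and how far this bears on these values was not tested. They lay a median of 24.4 kb from the bound of the desert (quartiles 8.99 and 50.97 kb), and 131 of the 480 bounds had a summit within 10 kb.

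The number of empty windows depended on the weakest summits of the list. With a minimum score of 2, 326 windows were empty, and of the 51 added ones 44 had held a single summit and 10 lay beside a desert. At a minimum of 5 there were 704 empty windows (5.57%), at 10 there were 1620 (12.8%) and at 20 there were 3651 (28.9%). The longest desert, on chromosome 3, was still 600 kb long with a minimum of 5.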

How the data were processed

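The authors deposited 1 list for the series, with a 1 bp line, a region name and a −log10 score per summit. The peak caller MACS2 2.2.6, the aligner BWA 0.1.17, deepTools 3.5.1 and the assembly GRCz11 are listed, without settings, per the submitters' processing notes. The score was read as −log10 of a q-value, because its minimum, 1.302, lies just above the −log10 of 0.05, but a p-value threshold could give the same minimum. The sources used here do not give how libraries were pooled, which control was used or how reads matching several places were treated, and depth is unknown.

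The end position of each line was taken as the 1-based summit. Windows of 100 kb start at position 1 of a chromosome. Intervals are exact Clopper-Pearson ones at 95%. No tests were made, since every value comes from the peak calling that chose the windows. Sequence, genes and repeats in the windows were not analysed here, because the gene table at hand belongs to another assembly. The regions named are the 10 longest deserts, the chromosomes with the highest and lowest shares, the 5 strongest edge summits and the deserts with the densest and sparsest edges; all other regions and chromosomes named were picked after their values were seen. The windows and these rules were chosen with earlier results of these data known. The search for deserts was run on simulated summits with planted gaps, dense enough that no other window was empty. This checks the search itself and says nothing about the deserts of the real list. The tools were scipy 1.17.1, pandas 2.3.3, numpy 2.4.6 and matplotlib 3.10.9 under Python 3.11.15.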

Additional observations from a re-analysis of the deposited data

How the results depend on the processing

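No paired analysis was possible because the list holds no value per library. The counts of empty windows and of deserts changed by more than 1.5 times with the window length and the score threshold, which follows from how these settings are built. Windows of 50 kb gave 2270 empty windows in 1739 deserts, and windows of 200 kb gave 19 in 16. A minimum score of 5 gave 704 in 588, and minimum scores of 3 and 10, added after the data were seen, gave 421 and 1620 empty windows. A minimum of 5 also raised the median edge score to 11.5, against 12.8 in the rest of the chromosomes. Measured outwards from the flanking summits, which are then left out, the edge density was 79.5 per Mb against 127 in the rest, an alternative also added after the data were seen. Without chromosomes 3 and 7, also added later, the outer 10% at each end held 20.7% of the empty windows, against 26.2% with them. On the 24 chromosomes these outer parts held 19.8% of all windows. Of all windows, 3.52% lay within 1 Mb of an end and 15.2% from 1 to 5 Mb. A grid shifted by 50 kb gave 256 empty windows in 212 deserts, and leaving out chromosome 7 gave 252 in 224. Under the other alternatives run for each, the longest desert was 600 to 689 kb. The share of empty windows in the outer 10% at each end (or the outer 5 Mb) was 23.8% to 26.4% under them. Edge density stayed below that of the rest in all 8 run. All but the one measured outwards from the flanking summits include the rest of each gap, so part of their low density is set by the grid. Depth, unknown here, limits how weak an enrichment could be called.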

Other observations

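Windows with 1 summit joined some deserts into longer sparse stretches. When runs of windows with at most 1 summit each were joined and those with at least 1 empty window kept, 236 stretches remained, and 3 of them spanned 5 or more windows. These were the 2 longest deserts, on chromosomes 3 and 8, which did not grow, and a stretch of 500 kb on chromosome 14 from 50.2 to 50.7 Mb with 1 summit in it. On chromosome 6 a stretch picked out after its values were seen, from 56.7 to 57.1 Mb, had 1 empty window and 3 windows with a lone summit.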
